A study of Solanum lycopersicum with 6 samples.

Results

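The 4 microRNA (miRNA) entries of the tomato families miR395, miR399 and miR827, which regulate sulfate and phosphate supply, were followed in green-stage fruit of control and drought-treated tomato plants. They are sly-miR395a, sly-miR399, sly-miR399b and sly-miR827, every entry of these families in the count table, which lists 137 mature miRNAs; the species prefix sly- is left out from here on. Small RNA was sequenced from 3 control and 3 drought libraries of green fruit. Control pots were given liquid fertilizer, diluted 500-fold, and plain water on alternating days after flowering. Drought pots were given the same diluted fertilizer 1 time per week and nothing else, so that less water and less fertilizer came together and cannot be told apart. All plants had only distilled water between the seedling stage and flowering. The labels name no cultivar, nor do they tie libraries to plants: whether 1 plant gave several libraries is unknown, and p-values then measure a spread that may be technical.

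Plants use these miRNAs to adjust nutrient uptake and transport. When phosphate is scarce, PHR-type transcription factors raise miR399, which travels in the phloem and guides cleavage of the mRNA of PHO2, a ubiquitin-conjugating enzyme that removes phosphate transporters; miR827 is raised as well and acts on NLA, an SPX-domain ubiquitin ligase, in Arabidopsis and on SPX-MFS vacuolar phosphate transporters in rice. When sulfate is scarce, miR395 rises and acts on ATP sulfurylase, the enzyme that activates sulfate, and on a sulfate transporter of the vascular tissue. Their mRNA targets were not measured in these small RNA libraries.

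Totals over all listed miRNAs ran from 644434 to 749332 counts in control and from 430732 to 468711 in drought, and the TMM factors that scaled the libraries ran from 0.848 to 1.35, the highest in drought library 2. Levels are given as CPM, counts divided by these TMM-scaled library sizes and brought to the usual total of 1e+06. All 4 members passed the filter on low counts, as did 99 of the 137 miRNAs. Fruit was extracted in bulk, so that a change in RNA per cell and a change in the share of cells that hold a miRNA cannot be told apart. In the gene table of assembly SLM_r2.1 the precursors MIR395a, MIR399 and MIR827 were found by name and no precursor named MIR399b was. That table also lists MIR395b next to MIR395a with 0 genes between them. The count table has no row for miR395b, and the sources used here do not give whether reads of its precursor were counted as miR395a.

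miR399 and miR395a rose in drought fruit, by 4.24-fold and 3.12-fold. miR399b stood 3.63-fold higher and did not pass the threshold. miR827 stood 1.94-fold higher, with drought levels on both sides of the control levels, in part within counting error. Each change was tested with the edgeR quasi-likelihood test, with p-values adjusted by Benjamini-Hochberg over all 99 miRNAs and an adjusted p under 0.05 taken as passing. So 2 of 4 members rose and 0 fell, where 9.09% of all tested miRNAs rose and 11.1% fell, 20.2% in all. At an unadjusted p under 0.05 miR399b joined them, making 3 of 4 members, where 34.3% of all tested miRNAs had such a p in either direction. All 4 members had a log2 fold change above 0, as did 53.5% of the tested miRNAs, and the median log2 fold change was 1.75 over the 4 members and 0.16 over all 99.

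**Figure D1:**
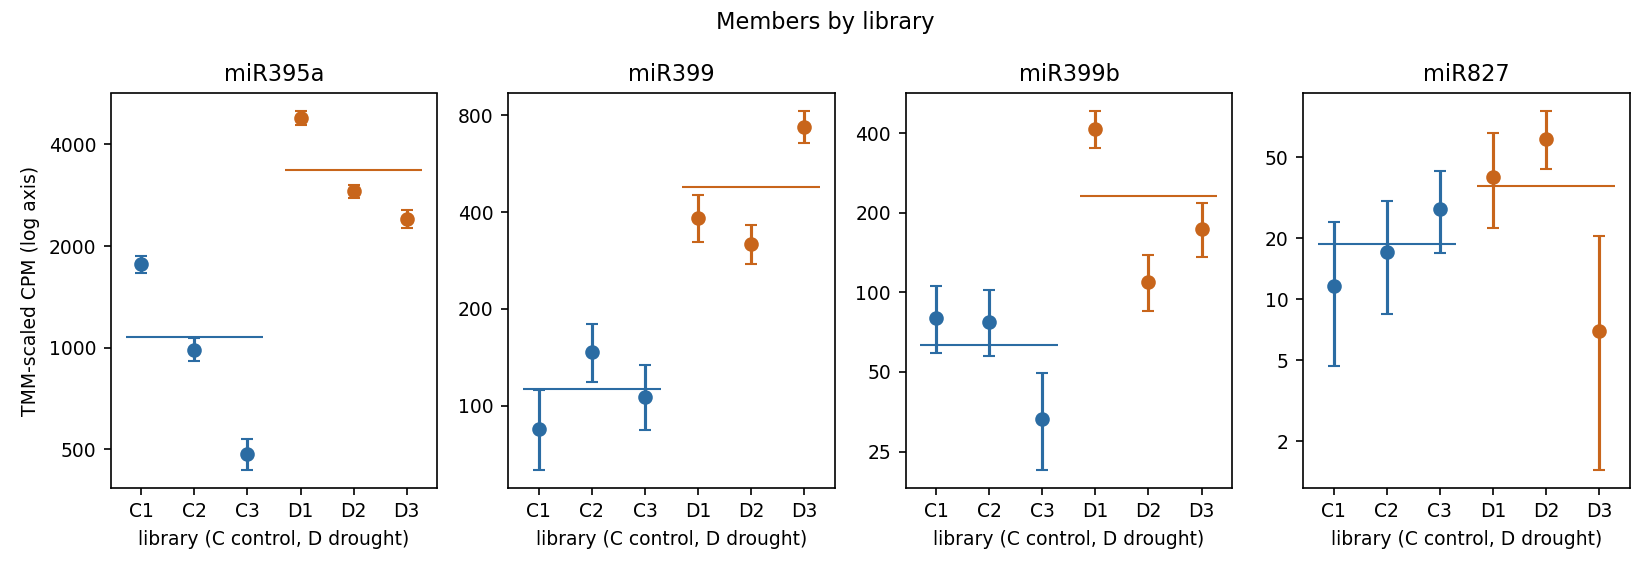
TMM-scaled CPM (log axis) of each member in the 3 control libraries (C1 to C3, blue) and the 3 drought libraries (D1 to D3, orange). Points are libraries, bars are exact 95% Poisson intervals for counting error only, and lines are group means. The points of the groups do not overlap for miR395a, miR399 and miR399b. For miR827 the D3 point is the lowest of all 6 libraries, with an interval that overlaps those of the control libraries.

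Of the phosphate-linked members, miR399, the regulator of PHO2, held 84.8, 147 and 107 CPM in control libraries 1, 2 and 3, from 51, 95 and 77 counts. In drought libraries 1, 2 and 3 it held 383, 317 and 736 CPM, from 144, 201 and 315 counts. All drought libraries lay above all control libraries, and the lowest drought level was 2.16 times the highest control level. Drought library 3 stood highest by a wide margin, above libraries 1 and 2 beyond counting error, since its exact 95% Poisson interval of 657 to 822 CPM lay clear of theirs, which reached 451 and 364 CPM. The mean CPM was 113 ± 31.5 in control libraries and 479 ± 225 in drought libraries (SD, n = 3 each), with a log2 fold change of 2.08 ± 0.47 (SE; edgeR adjusted p = 0.0123). Without control replicate 1, the lowest library, it stood at 1.92 and did not pass (edgeR adjusted p = 0.0574). Nor did it pass with the replicate number as a block, at 2.02 (edgeR adjusted p = 0.0540). Of all 99 tested miRNAs, 16 passed in the former fit and 12 in the latter, against 20 as reported. Over the 15 alternatives of miR399 the edgeR, DESeq2 or limma adjusted p ran from 2.1e-05 to 0.0574. The authors' deposited table gives miR399 a log2 fold change of 2.08 with an FDR p of 0.000267.

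The second entry of that family, miR399b, held 79.8, 77.4 and 33.3 CPM in control libraries 1, 2 and 3, from 48, 50 and 24 counts. In drought it held 413, 109 and 173 CPM, from 155, 69 and 74 counts. The groups did not overlap here either, but drought library 1 alone stood far above the rest, and the lowest drought library was 1.36 times the highest control library. The mean CPM was 63.5 ± 26.2 in control libraries and 232 ± 160 in drought libraries (SD, n = 3 each), with a log2 fold change of 1.86 ± 0.60 (SE; edgeR adjusted p = 0.0529). That p lies just past the threshold, and 7 of 15 alternatives brought it under 0.05. Among them were DESeq2 size factors in the same test (edgeR adjusted p = 0.0458) and the fit without drought replicate 2 (edgeR adjusted p = 0.000198). Of all tested miRNAs, 21 of 99 passed in the former fit and 41 of 101 in the latter, against 20 of 99 as reported. Without drought replicate 1, the library with the most miR399b, the log2 fold change was 1.20 and did not pass (edgeR adjusted p = 0.115). In that fit 15 of all 102 tested miRNAs passed. Over all 15 settings the edgeR, DESeq2 or limma adjusted p of miR399b ran from 0.000198 to 0.180. In the authors' deposited table miR399b has a log2 fold change of 1.89 and an FDR p of 0.0373, under 0.05, as have 24.8% of the 129 entries with a value there.

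The 2 entries of the family differed in which drought library held most of them. miR399 made up 51.5%, 65.5% and 76.2% of the counts of both entries in control libraries 1, 2 and 3, and 48.2%, 74.4% and 81.0% in drought. Its share was lowest in library 1 of each group, where the exact 95% binomial intervals were 41.3% to 61.7% and 42.4% to 54.0%, and the groups overlapped over nearly their whole range. The mean share of miR399 was 64.4% ± 12.4 in control libraries and 67.9% ± 17.4 in drought libraries (SD, n = 3 each). The sources used here do not give how reads that match both entries were assigned, so the split between them is less certain than their sum. The sum of both was 165, 224 and 140 CPM in control and 796, 426 and 909 CPM in drought. Its lowest drought value was 1.90 times its highest control value, and its mean CPM was 176 ± 43.4 in control libraries and 711 ± 253 in drought libraries (SD, n = 3 each).

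miR827, the other phosphate-linked miRNA, was scarce, with 7, 11 and 20 counts in control libraries 1, 2 and 3 and 15, 39 and 3 counts in drought. These are 11.6, 17.0 and 27.7 CPM in control and 39.9, 61.6 and 7.01 CPM in drought. By these levels drought libraries 1 and 2 lay above all control libraries and drought library 3 below them all, but counting error was large. The exact 95% Poisson intervals of control libraries 1, 2 and 3 were 4.68 to 24.0, 8.49 to 30.4 and 16.9 to 42.8 CPM. The intervals of drought library 3 and of drought library 1, 22.3 to 65.9 CPM, overlapped all of these. Only that of drought library 2 lay clear of them. The drought libraries differed among themselves by more than counting error, with an exact 95% Poisson interval of 1.45 to 20.5 CPM in library 3 against 43.8 to 84.1 CPM in library 2. The mean CPM was 18.8 ± 8.18 in control libraries and 36.2 ± 27.5 in drought libraries (SD, n = 3 each), with a log2 fold change of 0.95 ± 0.67 (SE) that did not pass (edgeR adjusted p = 0.313). None of its 14 alternatives (0 of 14) brought it under the threshold. It stood at 1.48 without drought replicate 3 (edgeR adjusted p = 0.105) and at 0.13 without drought replicate 2 (edgeR adjusted p = 0.917), so its size rests on which of these libraries is kept. In the authors' deposited table miR827 stands at 0.99 with an FDR p of 0.377.

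The sulfate-linked member, miR395a, held the most counts of the 4 in each library, between 72.4% and 90.9% of their sum. A ligation-based kit favours some miRNA ends over others, so that counts of different miRNAs are not levels on 1 scale. miR395a held 1766, 987 and 484 CPM in control libraries 1, 2 and 3, from 1062, 638 and 349 counts. In drought it held 4788, 2907 and 2404 CPM, from 1798, 1841 and 1028 counts. The drought libraries lay above all control libraries, the lowest of them at 1.36 times the highest control library, and the control libraries spread over 3.65-fold, more than the 1.99-fold of the drought libraries. The mean CPM was 1079 ± 646 in control libraries and 3366 ± 1257 in drought libraries (SD, n = 3 each), with a log2 fold change of 1.64 ± 0.49 (SE; edgeR adjusted p = 0.0428). The call was lost without control replicate 2 (log2 fold change 1.70, edgeR adjusted p = 0.105), control replicate 3 (1.40, edgeR adjusted p = 0.130) or drought replicate 1 (1.37, edgeR adjusted p = 0.0680). Fewer of all tested miRNAs passed in these fits too, in the same order 9 of 99, 13 of 99 and 15 of 102, against 20 of 99 as reported. Over the 15 other settings of miR395a the adjusted p (edgeR, DESeq2 or limma) ran from 0.00131 to 0.130. The authors' deposited table gives miR395a a log2 fold change of 1.73 with an FDR p of 0.000365.

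**Figure D2:**
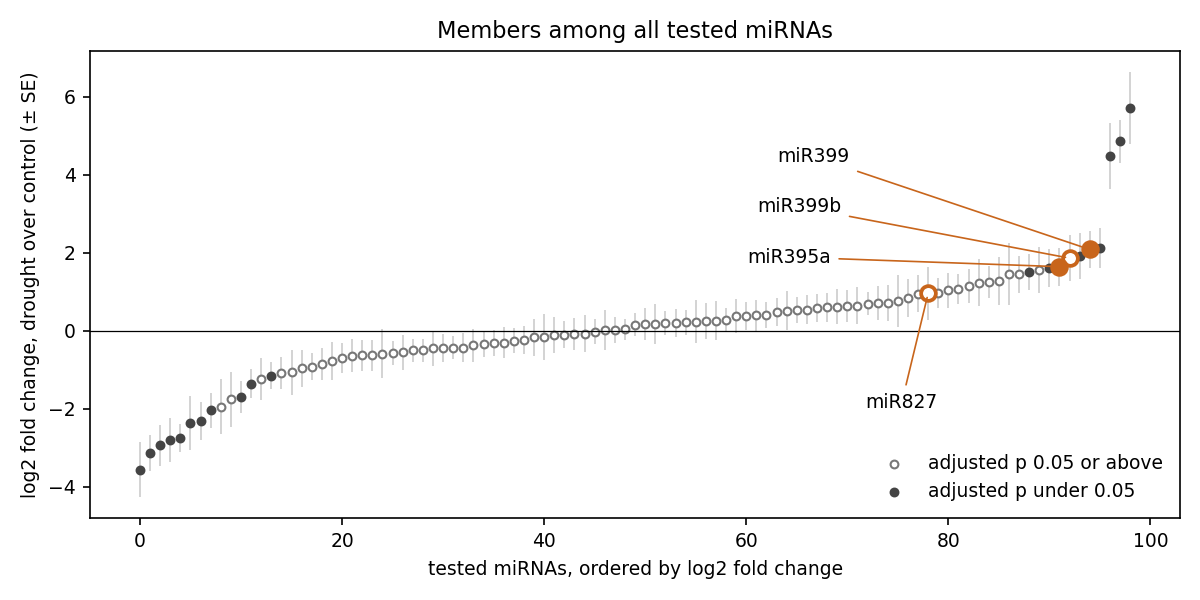
Log2 fold change of drought over control with its standard error for the 99 tested miRNAs, ordered by size; filled points passed an edgeR adjusted p of 0.05 and large orange points are the 4 members. miR399, miR399b and miR395a are ranks 5, 7 and 8 from the highest value, and miR827 is rank 21.

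By the size of the log2 fold change miR399 ranked 5 of 99 from the highest, miR399b 7, miR395a 8 and miR827 21. In 3 of the 4 members all drought libraries lay above all control libraries, as in 18.2% of the tested miRNAs; groups without overlap in either direction made up 37.4%. The separation of these 3 was kept with DESeq2 size factors, library totals alone and upper-quartile scaling. The lowest drought level was 1.32 to 2.88 times the highest control level over these scalings. The share of all tested miRNAs with such separation was counted with TMM scaling only. In the same order, 10, 16 and 16 of all 99 rose in these fits, against 9 as reported. Scaling shifted the median log2 fold change of all miRNAs from 0.16 to 0.09, 0.27 and 0.40 in these 3 fits. Relative to that median, miR399 stood between 1.91 and 1.93, miR399b between 1.60 and 1.70, miR395a between 1.44 and 1.49 and miR827 between 0.80 and 0.91 in all 4 fits.

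**Figure D3:**
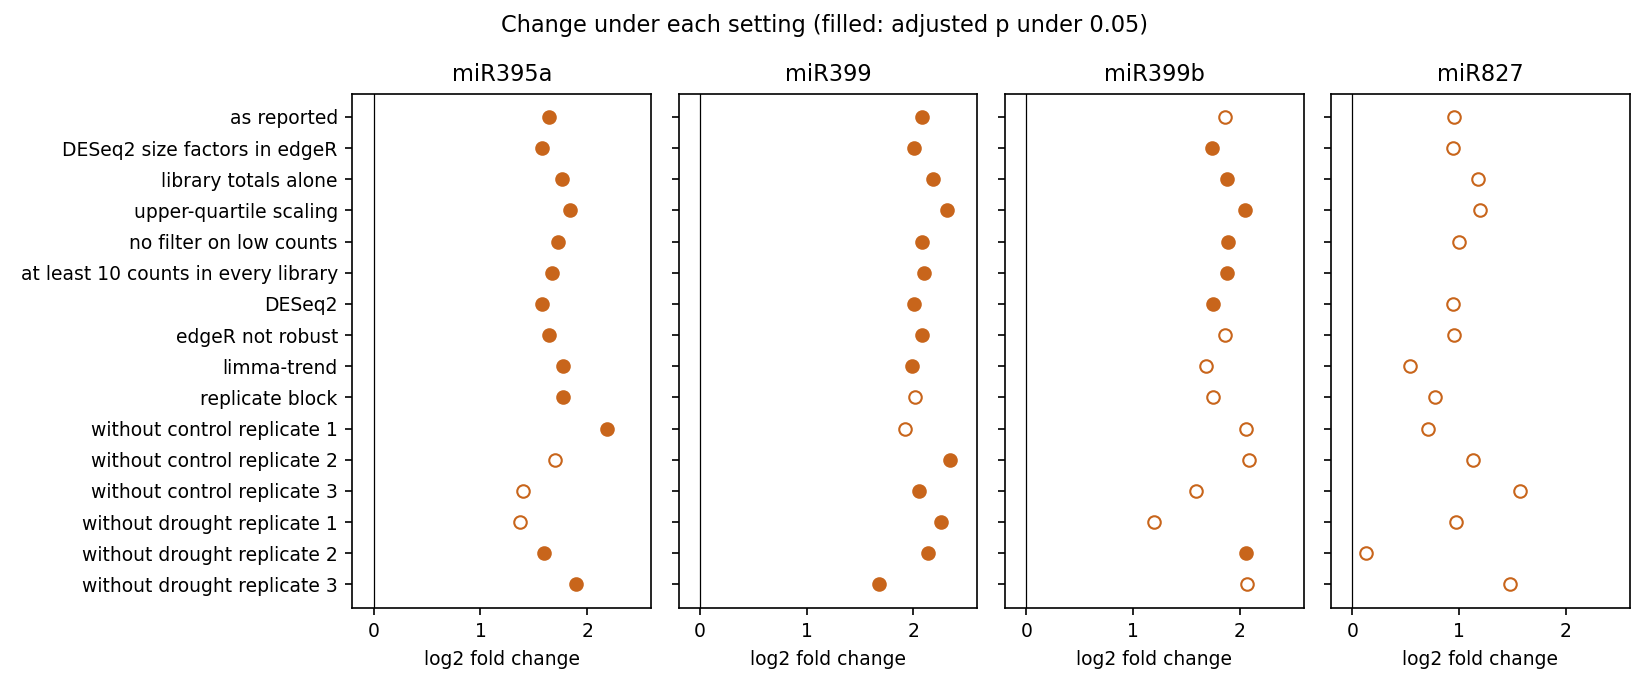
Log2 fold change of each member (x axis) under the reported settings and each alternative (y axis); filled points have an adjusted p under 0.05. All values are above 0, and the 4 panels hold 12, 13, 7 and 0 alternatives that passed, for miR395a, miR399, miR399b and miR827. miR827 has no value with at least 10 counts required in every library.

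As a share of all miRNA counts, with no TMM scaling, the 4 members together made up 0.177%, 0.123% and 0.0627% in control libraries 1, 2 and 3 and 0.477%, 0.459% and 0.330% in drought. miR395a went from 0.102% ± 0.0570 to 0.346% ± 0.0930, miR399 from 0.0109% ± 0.00356 to 0.0495% ± 0.0211 and miR399b from 0.00607% ± 0.00250 to 0.0223% ± 0.0111 (SD, n = 3 each). Each of these 3 shares was higher in all drought libraries than in all control libraries. The exact two-sided permutation p was 0.1 for each, the smallest that 3 against 3 allow, and 0.133 adjusted over the 4 members. How many of all tested miRNAs were separated in this way on unscaled totals was not counted. In the edgeR test with library totals alone 16 of all 99 rose and 11 fell, against 9 and 11 with TMM scaling. For miR827 the share was 0.00181% ± 0.000811 in control libraries and 0.00413% ± 0.00387 in drought libraries (SD, n = 3 each), with an exact permutation p of 0.5.

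Ratios between members within a library do not depend on how libraries are scaled, and none of the 6 pairs differed between the groups beyond the spread of the libraries. The log2 ratio of miR395a to miR399 was 3.09 ± 1.14 in control libraries and 2.84 ± 1.01 in drought libraries (SD, n = 3 each), a difference of -0.25 with a 95% interval from -2.69 to 2.19 (exact two-sided permutation p = 0.8). miR395a to miR399b was the steadiest ratio, 3.98 ± 0.42 and 4.02 ± 0.63, a difference of 0.03 with an interval from -1.18 to 1.24 (exact permutation p = 1). miR399 to miR399b differed by 0.28, with an interval from -1.94 to 2.50 (exact permutation p = 0.8). The 3 ratios with miR827 as the denominator were 1.16 to 1.44 higher in drought, with exact permutation p-values of 0.4 to 0.5, and their drought values spread widely, as in miR399 to miR827 at 3.22, 2.35 and 6.49 in libraries 1, 2 and 3. Adjusted over the 6 pairs the exact permutation p ran from 0.96 to 1. The smallest exact permutation p that 3 libraries against 3 allow is 0.1, so no pair could have gone under 0.05 in this test. The intervals are wide, so a difference of several fold between members remained undetectable with 3 libraries a group.

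**Figure D4:**
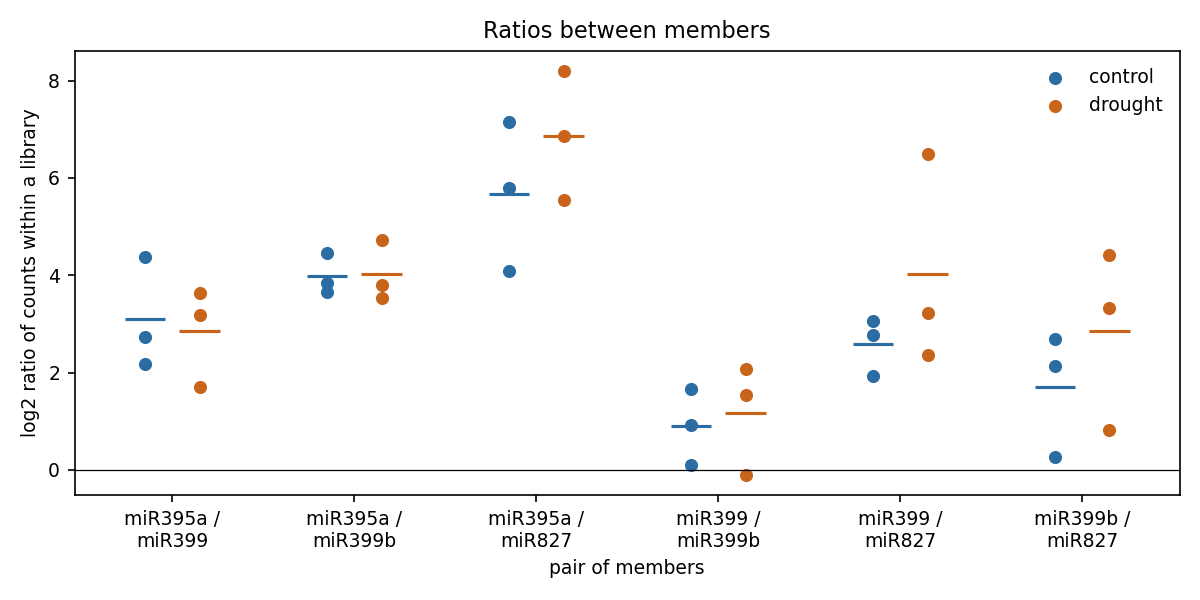
Log2 ratio of the counts of 2 members within each library, for the 6 pairs, in control (blue) and drought (orange); points are libraries and lines are group means. Control and drought points overlap in each pair.

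Members also differed in how much they varied between libraries of 1 group. The pooled within-group SD of log2 CPM was 0.524 for miR399, 0.752 for miR395a, 0.827 for miR399b and 1.04 for miR827. Of the 99 tested miRNAs, 56 varied less than miR399, 78 less than miR395a, 83 less than miR399b and 91 less than miR827. Only miR399 was thus near the middle of the tested miRNAs in spread. This SD includes counting error, which weighs more at low counts. miR827 had 3 to 39 counts a library and miR395a 349 to 1841, so the order is not one of biological spread alone.

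Over the 6 libraries, Pearson's r of log2 CPM (prior count 2) described which profiles were alike; the libraries share their scaling and fall into the 2 groups, so r also carries the difference between groups and no p is given. Among the members, miR395a and miR399b were most alike (r = 0.92), followed by miR399 with miR399b (0.73) and miR395a with miR399 (0.67), while miR827 stood at 0.21 or lower with each of the others. Of all other miRNAs, miR5302b-5p was most like miR395a (r = 0.97), with 53.2, 35.6 and 26.3 CPM in control and 162, 86.8 and 65.5 CPM in drought. It had a log2 fold change of 1.44 ± 0.47 (SE; edgeR adjusted p = 0.0539). miR9476-5p came next for miR395a, at r = 0.95. For miR399b these were miR391, which rose in drought with a log2 fold change of 1.62 ± 0.49 (SE; edgeR adjusted p = 0.0428), at r = 0.96, and miR10534 at r = 0.95, whose log2 fold change was 0.20 ± 0.36. For miR399 they were miR171b-5p (r = 0.91) and miR9474-5p (r = 0.87), with log2 fold changes of 4.49 ± 0.85 and 4.86 ± 0.55 (SE). miR171b-5p was nearly absent in control, at 3.33, 1.55 and 0 CPM, against 55.9, 15.8 and 49.1 CPM in drought. miR9474-5p held 18.3, 12.4 and 20.8 CPM in control and 785, 384 and 346 CPM in drought. Within drought it was lowest in library 3, where miR399 was highest. The r of both with miR399 thus rests largely on the difference between groups. For miR827 they were miR6024 (r = 0.91) and miR9478-3p (r = 0.85). Like miR827, miR6024 was highest in drought library 2 at 592 CPM and lowest in drought library 3 at 173 CPM, against 235 to 240 CPM in control.

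Other miRNAs linked to mineral supply were followed as a list: miR397, miR398 and miR408, which are raised when copper is scarce and act on laccase, copper/zinc superoxide dismutase and plantacyanin mRNAs, and miR169 and miR393, which respond to nitrogen in Arabidopsis and act on NF-YA factors and auxin receptors. The list held 12 entries, of which 4 (miR169a to miR169d) had 0 counts in all libraries and 6 passed the filter on low counts. miR857, miR778 and miR2111, also linked to copper or phosphate in Arabidopsis, were part of the list and have no row. Of the 6 tested, 0 rose and 0 fell in the edgeR test, where 9.09% and 11.1% of all tested miRNAs did. At an unadjusted p under 0.05 there were 2 of 6, where 34.3% of all tested miRNAs had such a p. With DESeq2 2 of the 6 passed, 1 in each direction, where 26 of all 99 did. With limma-trend 0 passed, where 17 of all 99 did. Without drought replicate 2 there were 2 (1 rise, 1 fall), where 41 of all 101 tested miRNAs passed. Without control replicate 3 there was 1 fall, miR169e-3p, where 13 of all 99 passed. The median log2 fold change of the 6 was -0.38, with 1 value above 0 and 5 below, against a median of 0.16 over all 99. This count of signs depended on the setting. miR397-5p and miR397-3p stood at -0.17 and -0.09 as reported, and at 0.09 and 0.16 with upper-quartile scaling.

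The positive value was that of miR408, the regulator of plantacyanin and laccase mRNAs. It held 46.6, 101 and 92.9 CPM in control libraries 1, 2 and 3 and 280, 78.9 and 351 CPM in drought, so that drought library 2 lay within the control range. Its log2 fold change was 1.55 ± 0.60 (SE; edgeR adjusted p = 0.0928). miR398a, the regulator of copper/zinc superoxide dismutase, stood at -0.59 ± 0.64 (SE; edgeR adjusted p = 0.508), with 1073, 224 and 2013 CPM in drought. miR397-5p and miR397-3p, from both arms of the precursor of a laccase regulator, stood at -0.17 ± 0.47 and -0.09 ± 0.41 (SE). Of the nitrogen-linked entries, miR169e-3p stood at -1.76 ± 0.71 (SE; edgeR adjusted p = 0.106), and without control replicate 2, which held 305 of its counts against 80 and 44 in the other control libraries, at -0.49. miR169f stood at -0.63 ± 0.40 (SE; edgeR adjusted p = 0.275). miR393 was not tested in the reported fit, with 5, 0 and 3 counts in control and 22, 9 and 2 in drought. It stood at 2.59 with no filter (edgeR adjusted p = 0.0842) and at 3.08 without drought replicate 3 (edgeR adjusted p = 0.0720). Also left out of the reported fit was miR169e-5p, from the other arm of the miR169e-3p precursor. It had 0, 2 and 0 counts in control and 0, 0 and 0 in drought, and stood at -2.48 with no filter (edgeR adjusted p = 0.512). Whether the 3p entry acts on NF-YA mRNAs was not examined.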

How the data were processed

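Per the labels' protocols, RNA was extracted with RNAiso Plus after Fruit-mate treatment, and 240 ng of total RNA went into NEBNext small RNA libraries. The authors deposited 1 table of raw counts per mature miRNA and library, with CPM values and their own fold changes and p-values, per the file headers. The sources used here do not give their aligner, miRNA database, genome build or test. The test was that of edgeR 4.0.16, run in R 4.3.3 on the counts (robust quasi-likelihood, two-sided, group as the only term) after filterByExpr (minimum count 10, minimum total 15), which kept 99 of 137 miRNAs, and TMM scaling. Standard errors of log2 fold changes were computed as the absolute change over the square root of F. Ratios between members used counts plus 0.5, with 95% intervals from the pooled variance of the 6 libraries. Exact permutation tests ran over all 20 assignments of libraries. Alternatives used DESeq2 1.42.0 and limma 3.58.1, other scalings and filters, a replicate block and fits without each library. No 2 libraries agreed within sampling noise (chi-square per degree of freedom 50.1 or more). Intervals cover counting error only. A floor of 3 counts, 4.00 to 6.96 CPM by unscaled totals, was computed for reference and replaced no value. Levels of 0 and levels below that floor are printed as they were. The floor is not the upper end of the exact Poisson intervals.

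The 4 members and the list of other nutrient-linked miRNAs were chosen with earlier results of these data known. Named miRNAs are the members, that list, and for each member the 2 other tested miRNAs with the highest Pearson r. Motifs before the precursor genes were not analysed here.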

Additional observations from a re-analysis of the deposited data

How the results depend on the processing

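The direction of all 4 members was kept in every alternative that gave a value. The differences in ratio between members, none of which stood out from the spread of the libraries, changed sign in 7 of 42 alternatives: miR395a to miR399 ran from -0.71 to 0.39, miR395a to miR399b from -0.32 to 0.27 and miR399 to miR399b from -0.17 to 0.92. miR399 passed in 13 of 15 alternatives and miR395a in 12 of 15; without single libraries their log2 fold changes ran from 1.68 to 2.34 and from 1.37 to 2.19, and that of miR399b from 1.20 to 2.09. miR399b passed with DESeq2 size factors (1.74), library totals alone (1.88), upper-quartile scaling (2.05), no filter (1.89), at least 10 counts in every library (1.88) and DESeq2 (1.75). In the same order, 21 of 99, 27 of 99, 26 of 99, 21 of 129, 17 of 88 and 26 of 99 miRNAs passed, against 20 of 99 as reported. The cause was not tested. With at least 10 counts in every library miR827 was not tested.

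With the replicate number as a block, miR399 stood at 2.02 and did not pass (edgeR adjusted p = 0.0540), 1 member passed instead of 2, and 12 of all miRNAs instead of 20. The numbers were not treated as pairing the libraries: deviations of same-numbered libraries from their group means correlated at 0.101, -0.245 and 0.00813, and not every library correlated best with its own number. Without single libraries the members that passed numbered from 1 to 3 (1 without each control replicate or drought replicate 1, 3 without drought replicate 2). All miRNAs that passed numbered from 9 (without control replicate 2) to 41 (without drought replicate 2), and other nutrient-linked miRNAs from 0 to 2. Of the latter, 1 passed with library totals alone and 1 with upper-quartile scaling, miR408 in each, and 2 with DESeq2, miR408 and miR169e-3p. Of all 99 miRNAs, 27, 26 and 26 passed in these fits, in the same order.

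With the 5 most abundant entries left out of the denominator, the difference in share was 0.491 percentage points for miR395a, 0.0799 for miR399 and 0.0332 for miR399b, larger because the denominator is smaller. Depth limits miR827 most, with 3 to 39 counts a library.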
